A study of Mus musculus with 39 samples.

Results

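Transcripts of coagulation and fibrinolysis were measured in 39 AB1-HA tumours, and the transcripts of coagulation factors VII and X (F7 and F10) differed most between treatments. The genes were selected by symbol, with differences between treatment groups in these same counts already known, so every level, fold change and p-value below describes chosen genes and is not independent evidence of a direction. The symbols named 9 genes: F3, F7, F10, F5, F13a1, Thbd, Plau, Plaur and Plat. Of these, 7 were analysed among the 39676 genes of the count table, and F13a1 and Plau were not analysed here. Each of the 7 had counts in all 39 tumours, from 8 to 1764 per tumour, and each passed the low-count filter in every comparison.

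AB1-HA is a mouse mesothelioma line that carries an influenza haemagglutinin gene, and it was grown under the skin of BALB/c mice in every group. Mice were given PBS (n=10), tretinoin alone (n=9, 5 mg/kg for 5 doses from day 4), ICT alone (n=10, 100 µg each of antibodies to CTLA-4 and PD-L1 from day 7) or both tretinoin and ICT (n=10). Tretinoin is all-trans retinoic acid, and ICT is immune checkpoint therapy. Every tumour analysed was taken on day 9, and in the tretinoin+ICT group the mouse kept another tumour whose later outcome labelled it a responder (n=6) or a non-responder (n=4). All tumours derive from a single transplanted line. Levels are given as CPM, the count relative to the TMM-scaled total of its library. The 5 mesothelial markers analysed summed to between 3.61 and 11.5 CPM over all tumours, Upk3b was at most 0.0617 CPM, and Msln was not analysed here.

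Coagulation starts when tissue factor, a membrane protein encoded by F3, binds factor VII from plasma. The complex activates factor X, which together with factor V forms the prothrombinase complex that makes thrombin, and thrombin turns fibrinogen into fibrin. Thrombomodulin (Thbd) binds thrombin and redirects it towards activation of the anticoagulant protein C. Fibrin is removed by plasmin, which tissue plasminogen activator (Plat) and urokinase (Plau) release from plasminogen, and Plaur encodes the cell surface receptor of urokinase. Factors VII, X and V of plasma come mainly from the liver, while macrophages, endothelial cells and fibroblasts are among the other cells that can express genes of this system.

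F7 (chromosome 8, 13026034 to 13035809, GRCm38) and F10 (chromosome 8, 13037308 to 13056676) are neighbours on the same strand. They lie 1498 bases apart with 0 genes between them in RefSeq order, and the next gene after F10, 4237 bases on, is Proz, which encodes the plasma protein Z. The bases before the start of these neighbours are shown because their transcripts had the widest range of all 7 members and varied together between tumours. Of the 7 members, 5 had an entry in the RefSeq promoter table (GRCm38.p6), F3, F5, F7, F10 and Plaur. The 250 bases before the start are written 5′ to 3′ on the + strand, chr8:13025784-13026033 for F7 and chr8:13037058-13037307 for F10, and capitals mark matches to the motifs searched.
F7: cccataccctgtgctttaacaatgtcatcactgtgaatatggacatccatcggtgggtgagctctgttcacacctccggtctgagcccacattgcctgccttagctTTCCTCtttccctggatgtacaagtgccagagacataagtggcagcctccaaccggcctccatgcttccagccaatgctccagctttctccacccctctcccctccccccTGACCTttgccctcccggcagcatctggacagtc
F10: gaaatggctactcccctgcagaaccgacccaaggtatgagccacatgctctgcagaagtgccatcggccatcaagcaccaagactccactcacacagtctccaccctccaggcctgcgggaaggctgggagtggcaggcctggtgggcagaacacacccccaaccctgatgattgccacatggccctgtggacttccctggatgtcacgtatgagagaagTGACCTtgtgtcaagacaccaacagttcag

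Windows of 300 bases, from 250 before to 50 after each start, were searched on both strands for 5 motifs. F7 and F10 each held AGGTCA, the core to which many nuclear receptors bind, on the reverse strand, its first base 34 bases before the start in F7 and 30 in F10. F5 held the same letters from 57 bases before its start, and 16.3% of all 32851 promoter windows held them. F7 also held GAGGAA, the core of PU.1 sites, from 144 bases before its start, as did 28.3% of all windows. The others were TGACTCA (AP-1, 5.2% of all windows), TTGCNNAA (C/EBP, 10.8%) and GGGCGG (Sp1, 35.7%), none of which was found in the windows of F7 or F10. The marked matches in F7 and F10 did not overlap. F3 held 1 AP-1 and 3 Sp1 matches, F5 held 1 Sp1 match, and Plaur held 2 PU.1, 1 AP-1, 1 C/EBP and 3 Sp1 matches, 2 of the Sp1 matches sharing a base. A match describes the letters of a window and was not tested as a binding site.

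The libraries held 14033046 to 37951183 counts each (median 18548168), and no 2 tumours of a group agreed within sampling noise. The transcripts of Cyp26b1, Dhrs3 and Stra6, which retinoic acid induces, summed to between 561 and 753 CPM after tretinoin and between 64.9 and 91.0 CPM after PBS. They summed to between 184 and 403 CPM after tretinoin+ICT and between 67.0 and 119 CPM after ICT. Against PBS, 3 of 3 were higher with tretinoin, and 2 of 3 with tretinoin+ICT and with ICT. Stra6 had a median of 21.7 CPM after tretinoin+ICT and 23.2 CPM after PBS. In bulk tumour RNA, fewer cells of a type and less RNA per cell cannot be told apart. The first digit of a tumour's name divides each treatment into 2 series, which the labels do not explain. As no series holds more than 1 treatment, treatments could not be compared within a series, and log2 ratios between pairs of series are given beside the results they touch.

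Levels were compared between genes per kilobase of exons. In PBS tumours, Plaur had the highest mean level (19.2 CPM per kb), followed by Thbd (9.11), Plat (8.60) and F3 (3.37). F10 (0.888 CPM per kb), F5 (0.866) and F7 (0.586) were lowest. In tretinoin+ICT tumours, F10 had a mean level of 16.9 CPM per kb, second to Plaur at 21.0, and F7 at 7.97 was above Plat at 7.52 and F3 at 4.31. F5, at 1.72 CPM per kb, was lowest in that group.

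**Figure D1:**
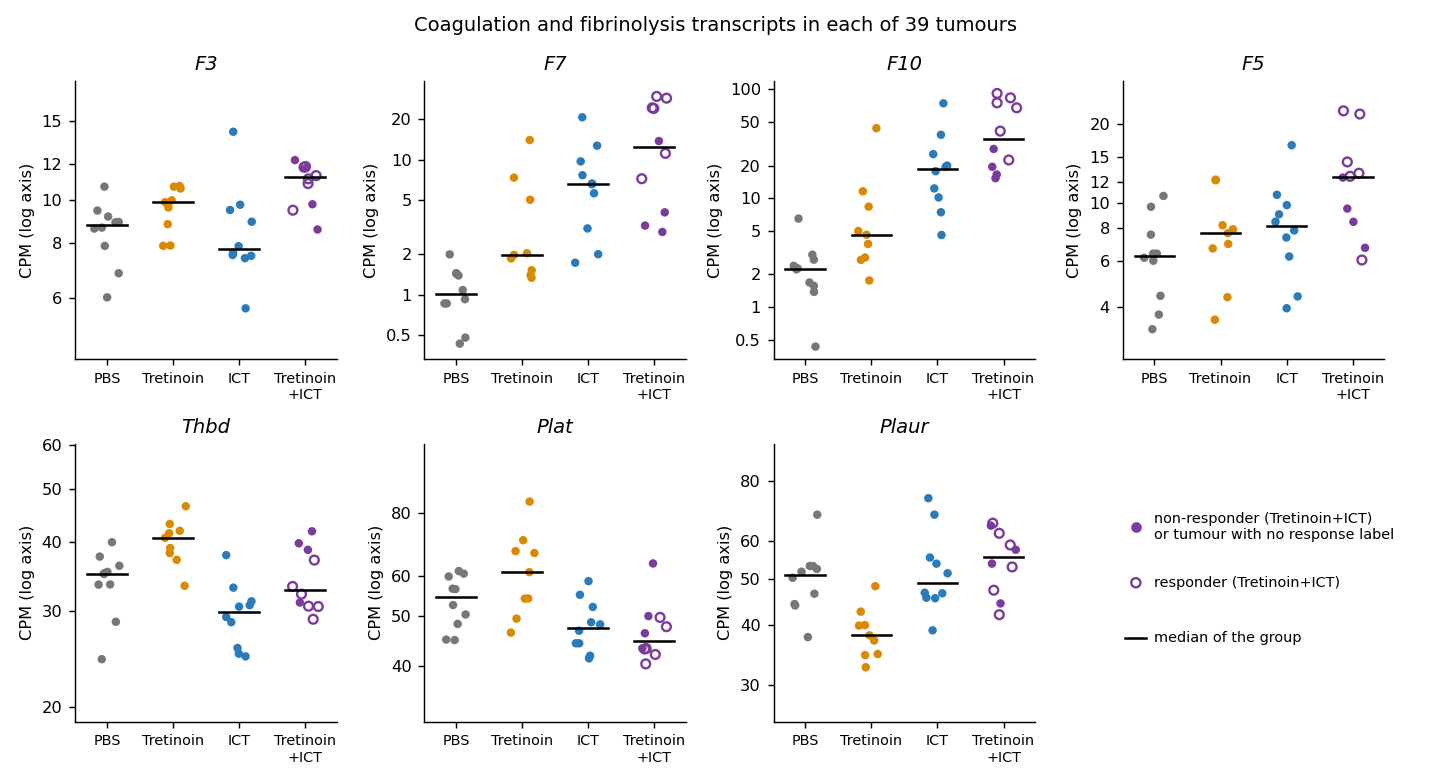
Level of each of the 7 members (CPM, log axis) in every tumour by treatment group, where each point is a tumour, open points are responders and black bars are group medians. F7 and F10 spread over the widest range, and all 10 tretinoin+ICT tumours were above all 10 PBS tumours for both.

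Initiation of coagulation needs factor VII, and its transcript was low in PBS tumours and higher in all 3 treated groups. F7 had a lowest, median and highest level of 0.434, 1.004 and 1.99 CPM in PBS tumours. The levels were 1.34, 1.97 and 13.9 CPM after tretinoin, 1.73, 6.61 and 20.6 CPM after ICT, and 2.91, 12.4 and 29.3 CPM after tretinoin+ICT. Of the tretinoin tumours 4 were above every PBS tumour, of the ICT tumours 9, and of the tretinoin+ICT tumours 10. F7 rose by a log2 fold change of 1.89 (SE 0.46, adjusted p=0.0079) with tretinoin, 2.79 (SE 0.41, adjusted p=0.00031) with ICT and 3.76 (SE 0.47, adjusted p=4.8e-06) with the combination, which are 3.70, 6.92 and 13.5 times the PBS level.

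F10 encodes the factor that the tissue factor complex activates, and its transcript followed the order of F7. In PBS tumours it had a lowest, median and highest level of 0.434, 2.25 and 6.51 CPM. The levels were 1.76, 4.62 and 44.0 CPM after tretinoin, 4.601, 18.6 and 74.5 CPM after ICT, and 15.3, 34.9 and 91.8 CPM after tretinoin+ICT. Only 3 of 9 tretinoin tumours were above every PBS tumour, whereas 9 of 10 ICT tumours and 10 of 10 tretinoin+ICT tumours were. F10 rose by a log2 fold change of 1.96 (SE 0.58, adjusted p=0.024) with tretinoin, 3.24 (SE 0.48, adjusted p=0.00046) with ICT and 4.25 (SE 0.45, adjusted p=1.2e-06) with the combination. The last is 19.1 times the PBS level.

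The rise with tretinoin alone depended on few tumours. Tretinoin tumour 3 had 44.0 CPM of F10, and the other 8 were between 1.76 and 11.6 CPM. Without it, the log2 fold change of F10 was 1.07 (adjusted p=0.071) and that of F7 was 1.36 (adjusted p=0.014). Tretinoin tumours of series 7 had 1.34 to 1.97 CPM of F7, no higher than the highest PBS tumour, and those of series 3 had 1.39 to 13.9 CPM. Over the 4 pairs of series the log2 ratio of tretinoin to PBS was 0.54 to 2.53 for F7 and 0.22 to 2.72 for F10. For ICT to PBS it was 2.57 to 3.03 for F7 and 3.10 to 3.40 for F10, and for tretinoin+ICT to PBS it was 3.45 to 4.05 and 3.88 to 4.603.

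F3, the gene of tissue factor, had a narrow range and differed between treatments by far less than its ligand F7. Its median was 8.77 CPM (lowest 6.03, highest 10.7) in PBS tumours, 9.87 CPM (7.87 and 10.7) after tretinoin, 7.73 CPM (5.70 and 14.2) after ICT, and 11.2 CPM (8.57 and 12.3) after tretinoin+ICT. The groups overlapped in all comparisons. F3 rose with tretinoin+ICT against PBS by 0.36 on the log2 scale (SE 0.09, adjusted p=0.0027), with 7 of 10 tumours above every PBS tumour. The log2 fold changes with tretinoin (0.17, adjusted p=0.22) and with ICT (0.01, adjusted p=0.97) did not pass.

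F5, the cofactor of factor X in prothrombinase, rose against PBS with the combination, and the differences with either treatment alone did not pass. Its median was 6.29 CPM (lowest 3.29, highest 10.6) in PBS tumours, 7.67 CPM (3.58 and 12.3) after tretinoin, 8.16 CPM (3.96 and 16.6) after ICT, and 12.6 CPM (6.06 and 22.5) after tretinoin+ICT. The groups overlapped throughout. Against PBS the log2 fold change was 0.997 (SE 0.25, adjusted p=0.0026) with tretinoin+ICT, with 6 of 10 tumours above every PBS tumour, and 0.27 (adjusted p=0.43) with tretinoin and 0.39 (adjusted p=0.25) with ICT.

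Thbd, which encodes the anticoagulant receptor thrombomodulin, was higher with tretinoin alone. Its median was 35.0 CPM (lowest 24.5, highest 39.97) in PBS tumours, 40.7 CPM (33.3 and 46.5) after tretinoin, 29.9 CPM (24.8 and 37.9) after ICT and 32.7 CPM (28.9 and 41.8) after tretinoin+ICT. Tretinoin and PBS tumours overlapped, with 5 of 9 above every PBS tumour. Thbd rose by 0.24 on the log2 scale with tretinoin (SE 0.08, adjusted p=0.030). Without PBS tumour 4 and tretinoin tumour 3 this was 0.21 and did not pass (adjusted p=0.061). The log2 fold changes against PBS were -0.20 (adjusted p=0.095) with ICT and 0.02 (adjusted p=0.85) with tretinoin+ICT, the latter changing sign to -0.0090 without PBS tumour 4.

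Against PBS, Plaur fell with tretinoin and Plat fell with tretinoin+ICT, both by small amounts. Plaur, the urokinase receptor gene, had a median of 51.0 CPM (lowest 37.8, highest 68.1) in PBS tumours, 38.1 CPM (32.7 and 48.3) after tretinoin, 49.1 CPM (39.02 and 73.8) after ICT and 55.7 CPM (42.1 and 65.4) after tretinoin+ICT. It fell by 0.38 on the log2 scale with tretinoin (SE 0.09, adjusted p=0.0056), with 4 of 9 tumours below every PBS tumour. Plat, the gene of tissue plasminogen activator, had a median of 54.6 CPM (lowest 44.9, highest 61.4) in PBS tumours, 61.1 CPM (46.5 and 84.2) after tretinoin, 47.5 CPM (41.3 and 58.7) after ICT and 44.8 CPM (40.3 and 63.6) after tretinoin+ICT. It fell by 0.19 on the log2 scale with tretinoin+ICT against PBS (SE 0.08, adjusted p=0.044), and this call was lost without tretinoin+ICT tumour 8 (adjusted p=0.069), with all tumours in a single fit (adjusted p=0.072) and without a low-count filter (adjusted p=0.051).

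**Figure D2:**
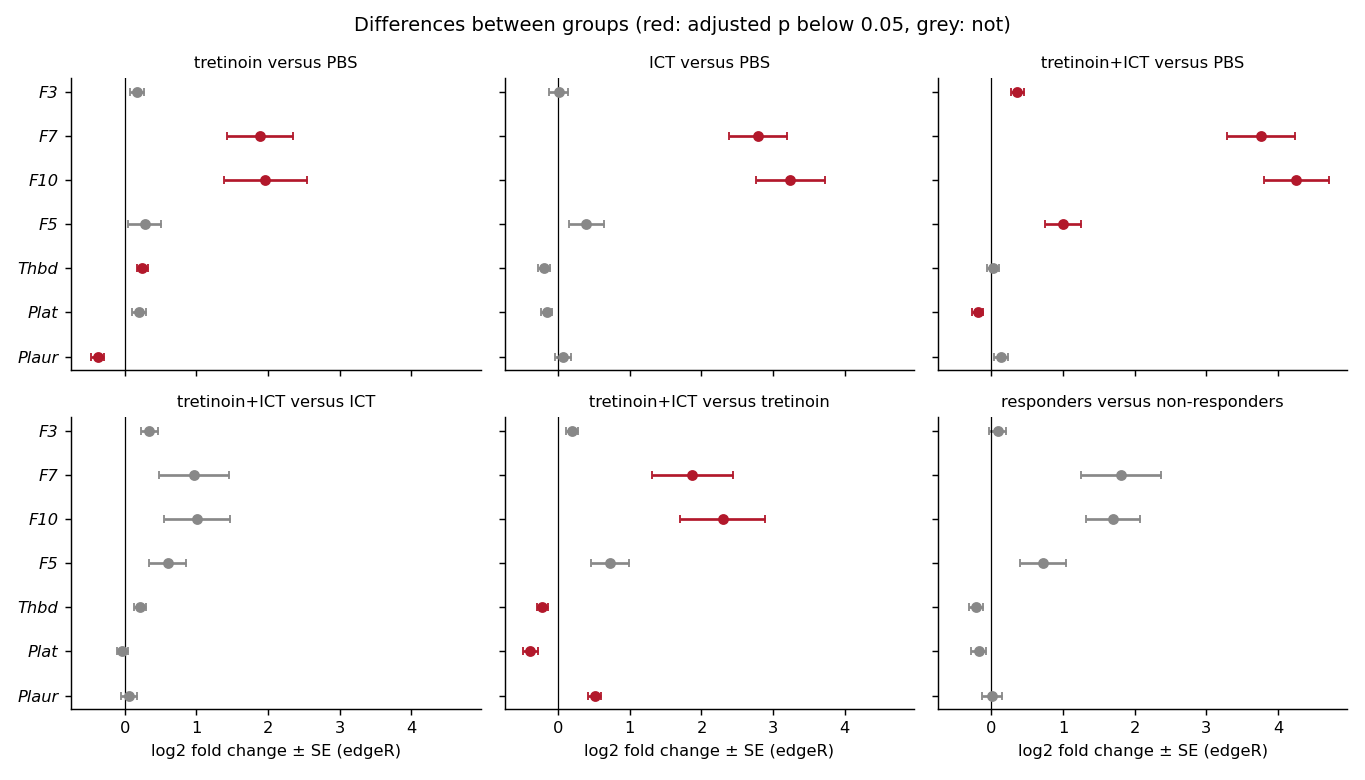
Log2 fold change of the 7 members in 6 comparisons, with bars of 1 standard error from edgeR and red points for an adjusted p below 0.05. F7 and F10 lie farthest to the right in every panel, and no point is red for tretinoin+ICT versus ICT or for responders versus non-responders.

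Counted over the members and against PBS, 4 of 7 passed an adjusted p of 0.05 with tretinoin (F7, F10 and Thbd higher, Plaur lower), beside 20.4% of all 14340 genes tested. With ICT 2 of 7 passed (F7 and F10, both higher), beside 21.2% of 14155 genes. With tretinoin+ICT 5 of 7 passed (F3, F7, F10 and F5 higher, Plat lower), beside 50.3% of 14265 genes. A log2 fold change of at least 1 as well was reached by F7 and F10 in all 3 comparisons, beside 1.62%, 2.35% and 5.92% of all genes. The median log2 fold change of the members was 0.24, 0.06 and 0.36, and that of all genes was 0.0079, -0.016 and -0.013. These 3 comparisons share the PBS tumours.

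Adding tretinoin to ICT gave higher mean levels of F7, F10 and F5 that did not pass the test. Against ICT alone, the log2 fold changes in tretinoin+ICT tumours were 0.96 for F7 (SE 0.48, adjusted p=0.29), 1.01 for F10 (SE 0.46, adjusted p=0.26) and 0.60 for F5 (SE 0.26, adjusted p=0.24). With 0 of 7 members past an adjusted p of 0.05, the background was 1.99% of 14202 genes by that rule and 0.394% with the fold minimum as well. In DESeq2 also 0 of 7 passed. ICT tumour 3, which had the highest F3, F7, F10 and F5 levels of its group, had weight here. Without it F3 passed (log2 fold change 0.45, adjusted p=0.0075), while F10 had 1.42 (adjusted p=0.053). The genes that passed then rose from 283 to 883. Leaving out PBS tumour 4, tretinoin tumour 3 and ICT tumours 3 and 7 together, F3, F10 and F5 passed (adjusted p=0.010, 0.021 and 0.044), beside 2420 genes. ICT tumours 3 and 7 had the highest F7 and F10 of their group, and the choice followed a look at the data. Removing the highest values of a group widens a difference above it by construction, so these calls are no separate support.

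Adding ICT to tretinoin was followed by higher F7, F10 and Plaur and lower Thbd and Plat. Against tretinoin alone, F7 rose by a log2 fold change of 1.87 (SE 0.57, adjusted p=0.027) and F10 by 2.29 (SE 0.59, adjusted p=0.014), each with 4 of 10 combination tumours above every tretinoin tumour. Plaur rose by 0.51 (SE 0.09, adjusted p=0.0012), with 7 of 10 tumours above every tretinoin tumour. Thbd fell by 0.22 (SE 0.07, adjusted p=0.039) and Plat fell by 0.39 (SE 0.10, adjusted p=0.013), each with 6 of 10 tumours below every tretinoin tumour. F5 had 0.72 (SE 0.26, adjusted p=0.055) and passed in DESeq2 (adjusted p=0.028) and without tretinoin tumour 3 (adjusted p=0.027). That tumour, left out after the data were seen, had the highest F7, F10 and F5 of its group. Removing it widens the difference by construction.

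In that comparison 5 of 7 members passed, beside 21.4% of 14393 genes, and F7 and F10 also reached the fold minimum, beside 2.08%. Without tretinoin tumour 3, F10 had a log2 fold change of 3.18 (adjusted p=0.00039) and F7 one of 2.40 (adjusted p=0.0043). As that tumour was the highest of its group for both, these larger values are no separate support. Without a low-count filter F7 (adjusted p=0.060) and Thbd (adjusted p=0.072) no longer passed. Over the 4 pairs of series the log2 ratio was 1.07 to 3.36 for F7, 1.42 to 4.12 for F10 and 0.32 to 0.67 for Plaur.

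Whether the tretinoin difference was another with ICT than without was tested as an interaction in all 39 tumours. None of the 7 members passed in edgeR or in DESeq2, beside 46 of 14977 genes (0.307%), and 1415 genes had an unadjusted p below 0.05. The interaction on the log2 scale was -0.93 for F7 (SE 0.70, adjusted p=0.70), -0.95 for F10 (SE 0.74, adjusted p=0.72), 0.32 for F5 (SE 0.37, adjusted p=0.82) and 0.44 for Plaur (SE 0.14, adjusted p=0.26). For F7 and F10 the sign turned without PBS tumour 4, tretinoin tumour 3 and ICT tumours 3 and 7 (0.048 and 0.29).

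Among tretinoin+ICT tumours, responders had higher mean F7, F10 and F5 than non-responders, and the result of the test depended on the tool. F10 was 15.3, 16.5, 19.5 and 28.4 CPM in the 4 non-responders and had a lowest, median and highest level of 22.5, 71.5 and 91.8 CPM in the 6 responders. F7 was 2.91, 3.25, 4.07 and 13.7 CPM in non-responders and 7.21, 24.03 and 29.3 CPM in responders. Of the responders, 5 of 6 were above every non-responder for F10 and 4 of 6 for F7, so the groups overlapped by a single responder for F10.

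The log2 fold change of responders to non-responders was 1.69 for F10 (SE 0.38, edgeR adjusted p=0.084), 1.80 for F7 (SE 0.56, edgeR adjusted p=0.11) and 0.71 for F5 (SE 0.32, edgeR adjusted p=0.22). In edgeR 0 of 7 members and 0 of 14604 genes (0.0%) passed an adjusted p of 0.05, and with the fold minimum the share was likewise 0.0%, while 3302 genes had an unadjusted p below 0.05. In DESeq2 1367 genes passed, among them F10 (adjusted p=0.00014) and F7 (adjusted p=0.025). Without responder tumour 8, which had the lowest F7, F10 and F5 of the responders, 1805 genes passed in edgeR, among them F10 (adjusted p=0.0059), F5 (adjusted p=0.038) and F7 (adjusted p=0.043). Removing the lowest responder widens the difference by construction, so these calls are no separate support. Leaving out any other single tumour, 0 members and at most 1 gene passed. F3, Thbd, Plat and Plaur were at 0.08, -0.22, -0.18 and 0.0089 on the log2 scale and did not pass in either tool.

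Both name series held responders and non-responders. In series 2 the mean F7 was 26.2 CPM in 2 responders and 3.41 CPM in 3 non-responders. In series 4 it was 18.0 CPM in 4 responders and 13.7 CPM in the only non-responder, a log2 ratio of 0.39 against 2.94 in series 2. For F10 the log2 ratio was 1.08 in series 4 and 2.06 in series 2. For F5 the direction differed between the series. Its mean in series 2 was 22.2 CPM in responders and 8.25 CPM in non-responders, a log2 ratio of 1.43. In series 4 it was 11.5 CPM in responders and 12.5 CPM in the non-responder, a log2 ratio of -0.12. With the series as a block the edgeR adjusted p was 0.12 for F10 and 0.14 for F7.

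Partners of the same step were compared within treatment groups, after removing each group's mean log2 CPM, over all 39 tumours. F7 and F10 varied together most closely (r=0.896, rho=0.898), and their correlation was 0.664 in PBS, 0.955 in tretinoin, 0.940 in ICT and 0.956 in tretinoin+ICT tumours. Over the 4 pairs compared, the adjusted permutation p was 4e-05 for r and 2e-05 for rho, the raw p of 1e-05 being the smallest that 100000 resamples can give. F10 and F5, the components of prothrombinase, also varied together (r=0.705, rho=0.741, adjusted permutation p=4e-05 and 2e-05). Without the 2 tumours farthest from the median, r was 0.893 for F7 with F10 and 0.6998 for F10 with F5. Other genes were as close or closer. Of 14977 genes F10 ranked 4 in likeness to F7, but F7 was not among the 5 most like F10, all at r of at least 0.931. The 5 genes most like F5 had r of at least 0.832 and did not include F10.

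Tissue factor and its ligand were less tied. F3 and F7 had r=0.360 (adjusted permutation p=0.031) and rho=0.246 (adjusted permutation p=0.14), with r=-0.015 among PBS tumours and 0.603 among ICT tumours. F3 and Thbd, the procoagulant and anticoagulant receptors, had r=0.151 (adjusted permutation p=0.39) and rho=0.318 (adjusted permutation p=0.077). The pairs of Plau with Plaur and with Plat were not analysed here. Per kilobase, the median ratio of F10 to F7 was 1.46 in PBS, 1.22 in tretinoin, 1.94 in ICT and 2.34 in tretinoin+ICT tumours, with overlapping ranges.

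Marker sums of several leukocytes varied with F7 and F10 within treatment groups, while the calls of single markers against PBS differed between lists. All 9 macrophage transcripts tested were higher with ICT and with tretinoin+ICT against PBS, with median log2 fold changes of 0.58 and 0.66, and 4 of 9 were higher with tretinoin (median 0.28). Their sum ranged from 2278 to 3503 CPM in PBS, 2447 to 4795 CPM in tretinoin, 2541 to 5197 CPM in ICT and 3419 to 4907 CPM in tretinoin+ICT tumours. In responders it was 4135 to 4907 CPM and in non-responders 3419 to 3949 CPM, with no overlap. Between these groups 0 of the 9 transcripts passed in edgeR (median log2 fold change 0.30). The sum of 3 mast cell transcripts did not overlap either, at 77.4 to 115 CPM in responders and 65.0 to 74.7 CPM in non-responders. How many of all genes separate these outcomes was not counted, and 3302 of 14604 had an unadjusted p below 0.05 in edgeR. The separation is thus not read as particular to these cells. Within treatment groups the log2 macrophage sum correlated with F10 (r=0.889, rho=0.856) and with F7 (r=0.733, rho=0.701), each with an adjusted permutation p of 5.25e-05 for r and 7e-05 for rho over 42 relations between 6 marker lists and 7 members. Without the 2 tumours farthest from the median, r was 0.889 and 0.701.

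**Figure D3:**
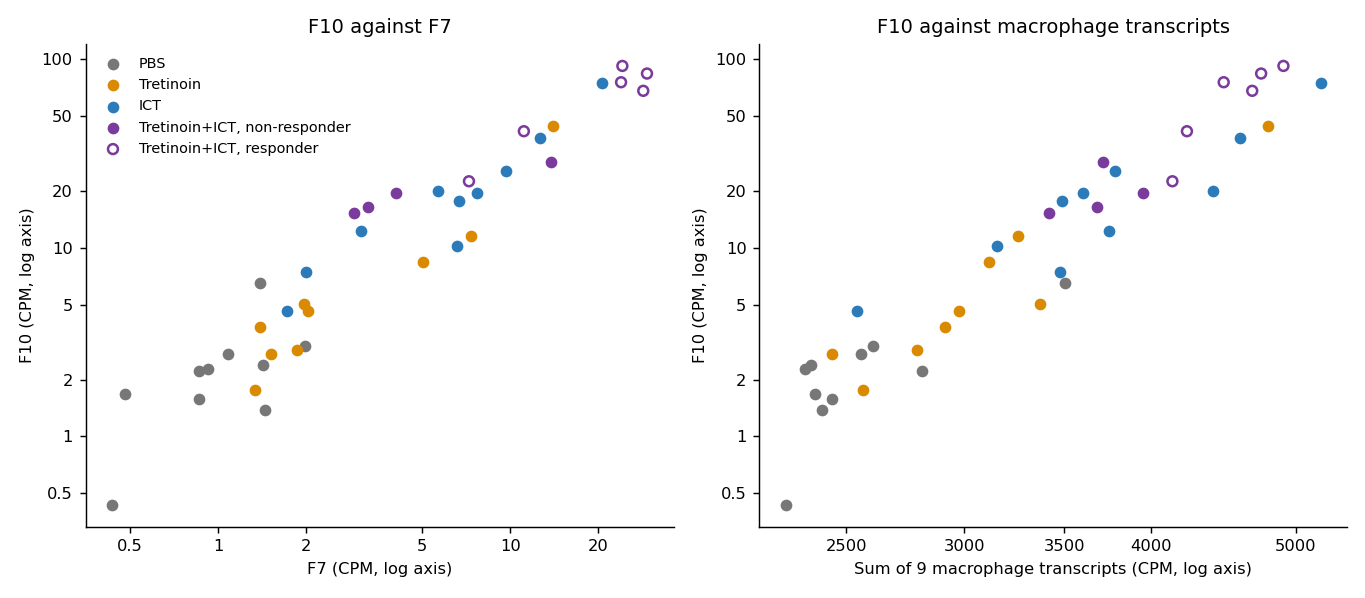
F10 in CPM on a log axis against F7 in CPM on a log axis (left) and against the summed CPM of 9 macrophage transcripts on a log axis (right), where each point is a tumour coloured by treatment and open points are responders. F10 spans 0.434 to 91.8 CPM while the macrophage sum spans 2278 to 5197 CPM.

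The sums of other leukocyte markers correlated with F7 and F10 as well. For F7, r was 0.729 with T or NK cell (rho=0.709), 0.686 with neutrophil (rho=0.679) and 0.605 with monocyte transcripts (rho=0.616). The adjusted permutation p for r was 5.25e-05, 5.25e-05 and 0.0012, and for rho 0.00011, 0.00014 and 0.0013. The values for F10 follow. For neutrophil transcripts r was 0.836 (rho=0.818), for T or NK cell transcripts 0.823 (rho=0.799) and for monocyte transcripts 0.695 (rho=0.711), each with an adjusted permutation p of 5.25e-05 for r and 7e-05 for rho. The neutrophil sum over 7 genes was 46.3 to 111 CPM in PBS, 56.3 to 163 CPM in tretinoin, 68.3 to 271 CPM in ICT and 103 to 264 CPM in tretinoin+ICT tumours. Against PBS, 5 of 5 genes tested were higher with ICT and with tretinoin+ICT. With tretinoin 0 of 4 passed (median log2 fold change -0.17). Monocyte transcripts summed to 889 to 1302 CPM in PBS and 1198 to 2177 CPM in tretinoin+ICT tumours. Of the 6 monocyte genes, 2 were higher with tretinoin and 5 with ICT against PBS, and 5 were higher and 1 lower with tretinoin+ICT. T or NK cell transcripts summed to 55.6 to 122 CPM in PBS and 64.2 to 142 CPM in tretinoin+ICT tumours. Of these 8 genes, 0 were higher with tretinoin, 1 with ICT and 2 with tretinoin+ICT against PBS. With the fibroblast sum F10 had a negative correlation (r=-0.584, rho=-0.505, adjusted permutation p=0.0012 and 0.0056). That of F7 did not pass (r=-0.349, rho=-0.316, adjusted permutation p=0.072 and 0.11). The part of any of these cells in the differences of F7 and F10 was not tested.

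Markers of the liver, the usual source of these factors, were at low levels. Albumin (Alb) was at most 1.23 CPM in any tumour, and the 4 hepatocyte markers analysed summed to between 2.72 and 8.39 CPM over all tumours. The 1 hepatocyte marker tested was higher with tretinoin+ICT against PBS (log2 fold change 0.46), and its part in the differences of F7 and F10 was not tested. Platelet markers summed to between 15.5 and 34.6 CPM, and none of those tested passed in the 6 comparisons between groups. F5 correlated with the T or NK cell sum (r=0.646, rho=0.687, adjusted permutation p=0.00023 and 0.00011) and with the macrophage sum (r=0.561, rho=0.577, adjusted permutation p=0.0014 and 0.0013). It also correlated with the monocyte sum (r=0.584, rho=0.584, adjusted permutation p=0.00088 and 0.0014) and the neutrophil sum (r=0.527, rho=0.534, adjusted permutation p=0.0035 and 0.0041).

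Plat varied with the fibroblast sum, most of which was collagen transcripts. Its correlation with the summed fibroblast transcripts was r=0.834 (rho=0.850, adjusted permutation p=5.25e-05 and 7e-05), and between 0.793 and 0.938 within each treatment group. That sum was 16304 to 25889 CPM in PBS, 13201 to 25030 CPM in tretinoin, 11694 to 25742 CPM in ICT and 12510 to 23634 CPM in tretinoin+ICT tumours. In PBS tumours its median parts were 14456 CPM of Col3a1, 5151 CPM of Col1a2 and 2216 CPM of Col1a1, against 213 CPM of Pdgfra and 67.4 CPM of Pdpn. Of the 5 genes, 1 was higher and 2 were lower with tretinoin+ICT against PBS. Bulk RNA does not assign the collagen transcripts to fibroblasts or to tumour cells, and the study describes these tumours as sarcomatoid. The part of either cell type in the differences of Plat was not tested. Thbd had r=0.489 (rho=0.483, adjusted permutation p=0.0050 and 0.0056) with the fibroblast sum and r=-0.055 (rho=-0.014, adjusted permutation p=0.77 and 0.93) with the endothelial sum. Its correlation was negative with the macrophage sum (r=-0.473, rho=-0.517, adjusted permutation p=0.0070 and 0.0042), the neutrophil sum (r=-0.434, rho=-0.423, adjusted permutation p=0.017 and 0.026) and the T or NK cell sum (r=-0.449, rho=-0.410, adjusted permutation p=0.011 and 0.029). Plat likewise had r=-0.495 (rho=-0.500, adjusted permutation p=0.0062 and 0.0056) with the macrophage sum and r=-0.487 (rho=-0.482, adjusted permutation p=0.0050 and 0.0056) with the neutrophil sum. Neither F3 nor Plaur passed both tests with any of the 6 lists.

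Among the 14977 genes that passed the filter, those most like each member within treatment groups are named as a description, over 39 tumours that share libraries. F7 was most like Slc7a2 (r=0.933), an amino acid transporter gene, and Mgl2 (r=0.914), a lectin gene. F10 was most like Slc7a2 (r=0.944) and Cish (r=0.941), a cytokine signalling inhibitor gene. F5 was most like Alox15 (r=0.884), a lipoxygenase gene, and P2rx1 (r=0.857), an ATP receptor gene. Plat was most like the collagen gene Col3a1 (r=0.843) and Mrgprf (r=0.841). For F3 they were Igfbp5 (r=0.755) and Col6a6 (r=0.735), for Thbd Tbx15 (r=0.703) and Marveld1 (r=0.702), and for Plaur Vrk2 (r=0.708) and Ptges (r=0.678). Col3a1 is also in the fibroblast list.

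The other genes of the system numbered 53, of which 47 were analysed and 28 to 31 passed the low-count filter, depending on the comparison. Transcripts of the later plasma proteins were scarcely detected. Prothrombin (F2) had at most 4 counts in any tumour, and the fibrinogen chains Fga, Fgb and Fgg had at most 4, 3 and 5. Plg, which encodes plasminogen, was not analysed here. Against PBS, 8 of 29 were higher and 2 lower with tretinoin, 9 of 28 higher and 2 lower with ICT, and 14 of 30 higher and 4 lower with tretinoin+ICT, beside the 20.4%, 21.2% and 50.3% of all genes. The median log2 fold change of the genes tested was 0.09, 0.02 and 0.09.

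Tgm2 encodes tissue transglutaminase, which cross-links proteins, and it had the highest log2 fold change of the other genes of the system tested with tretinoin against PBS. Its median was 146 CPM (lowest 110, highest 246) in PBS tumours, 525.5 CPM (376 and 1124) after tretinoin, 288 CPM (136 and 443) after ICT and 677 CPM (484 and 1290) after tretinoin+ICT. All tumours given tretinoin, alone or with ICT, were above every PBS tumour. The log2 fold change was 1.97 (SE 0.20, adjusted p=2.0e-06) with tretinoin, 0.86 (SE 0.18, adjusted p=0.0044) with ICT, 2.31 (SE 0.18, adjusted p=2.9e-08) with the combination against PBS and 1.44 (SE 0.21, adjusted p=0.00028) with the combination against ICT.

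Serpinb2 and A2m, genes of protease inhibitors, were also higher with the combination. Serpinb2, the gene of plasminogen activator inhibitor 2, had a median of 2.24 CPM (0.912 and 10.99) in PBS and 13.6 CPM (4.59 and 41.8) in tretinoin+ICT tumours. It rose on the log2 scale by 1.76 (adjusted p=0.015) with ICT and 2.46 (adjusted p=0.00054) with the combination against PBS. Without PBS tumour 4 and ICT tumours 3 and 7 the value with ICT was 1.36 and did not pass (adjusted p=0.062). A2m, a broad protease inhibitor gene at a median of 0.333 CPM in PBS tumours, rose by 1.79 with the combination (adjusted p=0.00028).

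Regulators at the cell surface and in plasma changed by less. Serping1, the complement and contact system inhibitor gene, rose by 1.64 (adjusted p=1.0e-05) with tretinoin+ICT, 1.03 (adjusted p=0.011) with ICT and 0.66 (adjusted p=0.049) with tretinoin. Entpd1, whose product CD39 degrades extracellular ATP and ADP, rose by 1.15 (adjusted p=4.7e-06), 0.71 (adjusted p=0.011) and 0.50 (adjusted p=0.039) in the same order. F2rl2, a thrombin receptor gene, rose by 1.09 with tretinoin+ICT (adjusted p=0.00029) and 0.85 with ICT (adjusted p=0.014). With tretinoin alone it had -0.31 (adjusted p=0.26). The calls of Serping1 and Entpd1 with tretinoin were lost in several settings, among them without tretinoin tumour 3 (adjusted p=0.11 and 0.086).

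Tfpi, the gene of the tissue factor pathway inhibitor, fell by 0.19 with tretinoin+ICT (adjusted p=0.0035) and by 0.12 with ICT (adjusted p=0.038) on the log2 scale. The call with ICT was lost in 5 settings, with adjusted p from 0.076 (without ICT tumour 7) and 0.083 (without ICT tumour 3) to 0.15 (without PBS tumour 4, tretinoin tumour 3 and ICT tumours 3 and 7). Procr, the endothelial protein C receptor gene, rose by 0.40 with tretinoin+ICT against PBS (adjusted p=0.0028). Vwf, which encodes von Willebrand factor, rose by 0.68 with tretinoin (adjusted p=0.0059) and 0.55 with tretinoin+ICT (adjusted p=0.0054). The 9 endothelial markers summed to 286 to 351 CPM in PBS, 329 to 457 CPM in tretinoin and 315 to 398 CPM in tretinoin+ICT tumours, and their part in the rise of Vwf was not tested. Proz, the neighbour of F10, rose by 0.94 with tretinoin+ICT (adjusted p=5.2e-05), with all 10 tumours above every PBS tumour. It rose by 0.46 with ICT (adjusted p=0.036) and 0.42 with tretinoin (adjusted p=0.026), and is named here because it adjoins F10, after its values were seen.

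**Figure D4:**
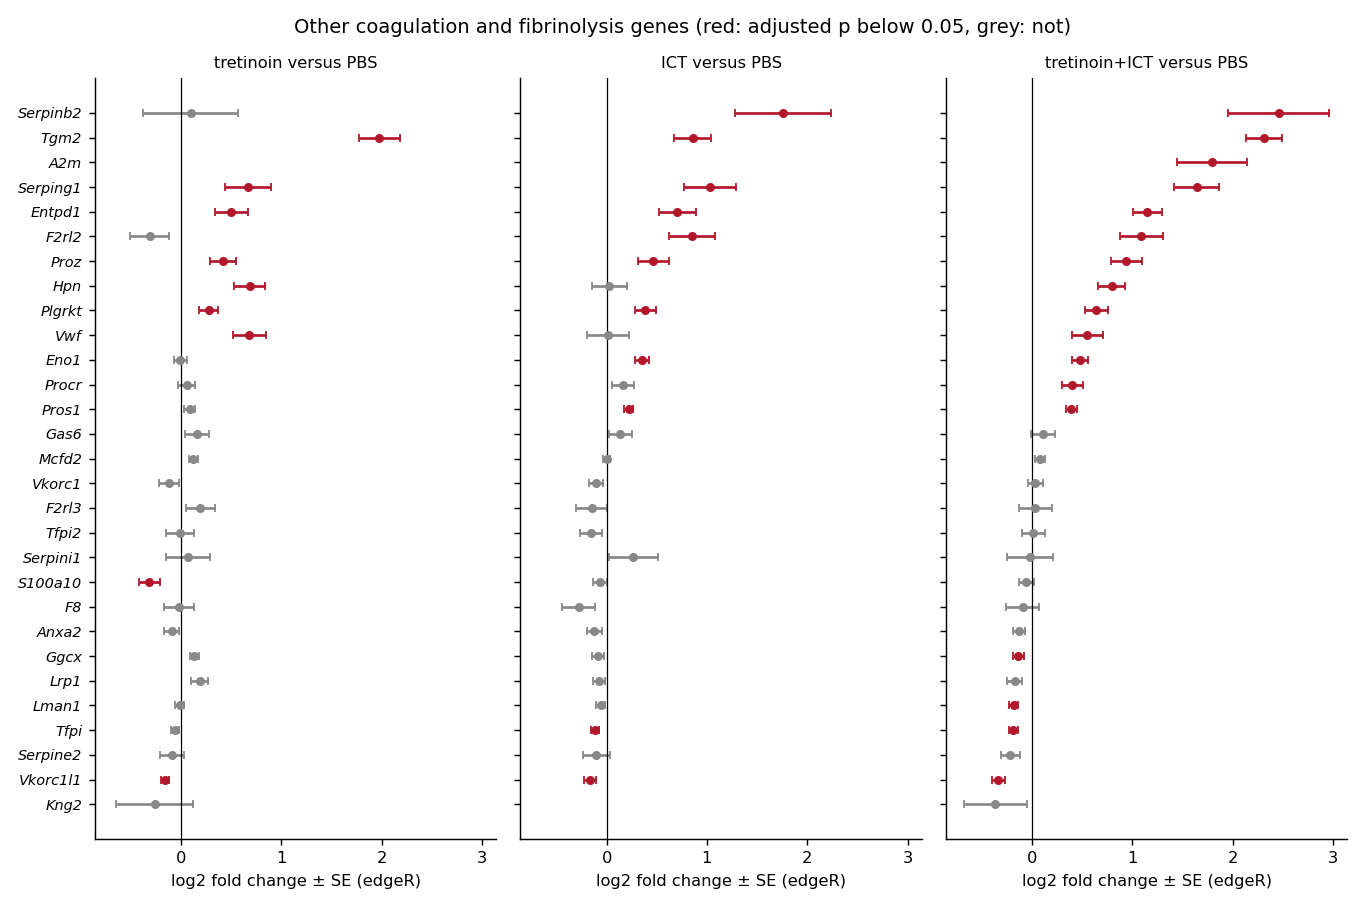
Log2 fold change against PBS of 29 other coagulation and fibrinolysis genes that passed the low-count filter, with bars of 1 standard error from edgeR and red points for an adjusted p below 0.05. Serpinb2, Tgm2, A2m and Serping1 have the highest values with tretinoin+ICT, and A2m was tested only there.

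Among the other comparisons, 3 of 29 genes were higher with tretinoin+ICT against ICT, among them Hpn and Tgm2, or 10.3% beside 1.99% of all genes. Hpn, a membrane protease gene that can activate factor VII, rose by 0.76 (adjusted p=0.032). Against tretinoin, 9 of 29 were higher and 3 lower, or 41.4% beside 21.4%, and Serpinb2 (2.36, adjusted p=0.0053) and F2rl2 (1.401, adjusted p=0.0014) reached the fold minimum. Between responders and non-responders 0 of 29 passed in edgeR. In DESeq2 F2rl2, Serpinb2, Tgm2, Entpd1 and Serping1 passed (adjusted p=0.017, 0.017, 0.047, 0.024 and 0.036), with log2 fold changes of 0.92, 1.75, 0.59, 0.53 and 0.80. They were among 1367 genes that passed in that tool.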

How the data were processed

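RNA of 39 tumours, each from a separate mouse, was sequenced by the authors as 100 base single-end reads on a NovaSeq instrument. Per the submitters' processing notes, bcl2fastq 2.20.0.422 and HISAT2 2.0.4 were used. The authors aligned to a genome they name mm11 and counted reads on genes with SummariseOverlaps. The strand setting and the treatment of multimapping reads are not given in the sources used here, so overlapping genes may share reads. The deposited values are raw counts, whole numbers without normalization, and 36719 of 39676 identifiers match GENCODE M21 (GRCm38) with their version. The labels give 5 mg/kg tretinoin and the study's text gives another dose for some experiments, and the labels were followed. For these treatment groups, a figure legend of the study gives fewer tretinoin doses than the 5 stated above.

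R 4.3.3 with edgeR 4.0.16 (TMM, filterByExpr, robust quasi-likelihood test, Benjamini-Hochberg adjustment over all genes tested) was run on the tumours of the groups compared, or on all 39 for the interaction. DESeq2 1.42.0, Python 3.11.15, pandas 2.3.3, numpy 2.4.6 and scipy 1.17.1 were also used. A gene passed at an adjusted p below 0.05, and a log2 fold change of at least 1 was counted as well, as in the study's methods. Standard errors (SE) were taken from the log2 fold change and its F statistic. CPM is the count relative to the TMM-scaled library total. Correlations used log2 CPM (prior count 2) and two-sided permutations within treatment groups. CPM per kilobase used the union of exons of each gene in GENCODE M21. The edgeR steps were tested on simulated data.

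Members and gene lists were chosen with earlier results of these data known. The text names all 9 members, other genes of the system that passed with the fold minimum in any comparison of 2 groups, F2, Fga, Fgb, Fgg, Plg, Tfpi, Procr and Vwf whatever their values, and the 2 genes most like each member. Proz, Hpn, Upk3b and Alb were named after their values were seen. A gene that the rule also names is not reported here. Alternatives were DESeq2, its size factors, no filter on low counts, a minimum of 10 counts in each tumour, a single fit of all tumours, the name series as a block, leaving out each responder and non-responder in turn, and variance stabilized values for correlations. Leaving out 5 single tumours, and 4 together, was added after the data were seen. Depth sets the precision, and the members with the fewest counts had 8 in a tumour.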

Additional observations from a re-analysis of the deposited data

Results flagged for a closer look

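In 8 of 42 sets of values, a set being a member in a treatment or outcome group, 1 tumour lay farther from the others than Dixon's 95% limit allows. For independent and normally distributed values chance gives about 1 in 20, or 2.1 of 42. Here the outcome sets reuse the tretinoin+ICT tumours, and some sets were skewed, so 8 cannot be judged against that number. ICT tumour 3 had 14.21 CPM of F3, the others of its group being at 5.699 to 9.741 CPM, and 74.49 CPM of F10, the others being at 4.601 to 38.31 CPM. Tretinoin tumour 3 had 13.94 CPM of F7 (others 1.335 to 7.348 CPM) and 44.03 CPM of F10 (others 1.76 to 11.6 CPM). Its macrophage sum was 4795 CPM, the highest of the tretinoin tumours. PBS tumour 4 had 6.514 CPM of F10, and the other PBS tumours had 0.4345 to 3.033 CPM. Tretinoin+ICT tumour 9, a non-responder, had 13.72 CPM of F7, and the other non-responders had 2.912 to 4.068 CPM. The same tumour had 63.57 CPM of Plat, against 40.31 to 50.08 CPM in the other combination tumours. PBS tumour 1 had 68.13 CPM of Plaur, against 37.77 to 53.22 CPM in the other PBS tumours. The results that change without these tumours are given with the comparisons they touch.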

How the results depend on the processing

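F7 and F10 kept their direction in every comparison of 2 groups under all alternatives in which they were tested. Over all members and alternatives, 430 log2 fold changes kept direction and side of the threshold, 14 came to pass, 8 no longer passed and 16 changed sign. With at least 10 counts in every tumour, F7 and F10 were not tested against PBS, since fewer genes enter, and the members that passed were 2, 0 and 3 with tretinoin, ICT and tretinoin+ICT against PBS. Without a low-count filter 3 members passed for tretinoin+ICT against tretinoin. No paired analysis was possible because the replicate numbers follow only the order of accessions. The name series as a block changed no call between responders and non-responders. Counting error at 8 to 40 counts limits F7 in PBS tumours. The causes of the changes that follow were not tested.

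With DESeq2 the genes past the adjusted p and the fold minimum numbered 364 for tretinoin, 1387 for the combination against PBS, 137 for it against ICT, 479 against tretinoin and 157 for responders, and those past the adjusted p alone 587 against ICT, 1367 for responders and 85 for the interaction. DESeq2 called 2 members for responders. Without a low-count filter the counts were 1586 with the fold minimum for tretinoin+ICT against PBS, 5 for responders and 29 for the interaction. With all tumours in a single fit they were 741 and, with the fold minimum, 101 for tretinoin+ICT against ICT, and 1 by either rule for responders. At least 10 counts in every tumour left 31 genes with the fold minimum for tretinoin+ICT against ICT.

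Leaving out PBS 4, tretinoin 3 and ICT 3 and 7 gave 213 genes with the fold minimum for ICT against PBS, 2420 and 250 by the 2 rules and 3 members for tretinoin+ICT against ICT, and 74 genes for the interaction. Log2 fold changes turned to -0.12 (F3) and -0.19 (Vwf) for ICT and -0.0090 (Thbd) for tretinoin+ICT against PBS, and the interactions to 0.048 (F7), 0.29 (F10), 0.20 (Entpd1), 0.40 (Serping1) and 0.087 (Vwf).

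Leaving out a single tumour, the genes with the fold minimum ranged from 153 (without tretinoin 3) to 292 for tretinoin and from 212 (without ICT 3) to 416 for ICT against PBS. Between the combination and ICT they ranged from 60 to 123, and those by adjusted p from 275 to 883, with 0 to 1 members, the highest values being without ICT 3. For responders the ranges were 0 to 1805, 0 to 205 and 0 to 3 members, the highest without responder 8. Log2 fold changes that changed sign ranged from -0.097 to 0.031 (F3, ICT against PBS), -0.056 to -0.041 (Vwf, ICT against PBS), -0.0090 to 0.029 (Thbd, tretinoin+ICT against PBS), -0.022 to 0.14 (F3, responders) and -0.085 to 0.076 (Plaur, responders). Plaur also turned to -0.0030 with DESeq2, -0.0029 with its size factors and -0.021 without a filter. The interactions ranged from -0.16 to 0.081 (Entpd1) and -0.16 to 0.22 (Serping1). None of these log2 fold changes or interactions passed the test in the fits reported above.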
